A study of Mus musculus with 4 samples.

Results

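The genes examined are 33 cathepsin and lysosomal genes of the mouse, 13 of them named as cathepsins (Cts). They were taken by name from a set list, and all 33 matched 1 gene each among the 21951 protein-coding genes of the GENCODE vM21 annotation. Regions of transcription initiation at these genes were mapped by PRO-seq (precision nuclear run-on sequencing, which locates RNA polymerases engaged on DNA by letting them extend their nascent RNA) in mouse embryos of stage E14.5, in fetal liver and in yolk sac, with 2 libraries for each tissue. Each library was made from the whole tissue of 6 pooled embryos. All embryos, of both tissues, had C57BL/6J mothers and fathers of mixed C57BL/6J and CAST/EiJ background that carried CAST/EiJ polymorphisms only at the Dlk1/Gtl2 locus of chromosome 12, so the tissue is the sole difference between the groups that the labels give. Whether the pools of a tissue came from separate litters is not stated, and the spread between them may be technical. In whole tissue, fewer cells of a type and less transcription per cell cannot be told apart.

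Lysosomes are acidic organelles that break down material taken up by endocytosis, phagocytosis or autophagy. Their hydrolases include the cathepsins, a group of proteases with cysteine, aspartic or serine active sites, together with glycosidases and lipid-degrading enzymes, and defects in many of these enzymes cause storage diseases. TFEB and its relatives are transcription factors that bind E-box elements near the starts of many lysosomal genes. The visceral endoderm of the yolk sac takes up maternal proteins and degrades them in lysosomes to supply the embryo, whereas the fetal liver at this stage is a main site of red blood cell formation.

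The deposited data were 1 list of peaks per library, each peak being an interval classed as a transcription start region. The liver lists held 24863 and 24333 peaks and the yolk sac lists 50525 and 43055. The number of reads behind the lists is unknown, and its part in the length of the lists was not tested. In the lists, 9 of 9 erythroid marker genes had a promoter peak in each liver library and 3 in each yolk sac library, and 10 of 10 yolk sac endoderm markers had a promoter peak in each yolk sac library against 8 and 6 in liver. No exact permutation test of 2 libraries against 2 can give a p-value below 0.333.

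Most of the 33 genes were initiated in both tissues. A promoter peak is a peak that overlaps a start window of the gene, which reaches 500 bp to each side of any of its annotated start sites. Such peaks were found at 30 and 30 of the 33 genes for the liver libraries and at 30 and 31 for the yolk sac libraries. The mean for liver was 30 ± 0 genes and that for yolk sac 30.5 ± 0.707 genes (SD, n = 2; two-sided exact permutation p = 1). Among all protein-coding genes, 12306 and 12706 had a promoter peak in liver (56.1% and 57.9%) and 13999 and 13702 in yolk sac (63.8% and 62.4%). The ratio of the yolk sac mean to the liver mean was 1.02 for the 33 genes and 1.11 for all protein-coding genes. Of the 33 genes, 29 were called in all 4 libraries, where 53.8% of all protein-coding genes were. A single gene, Ctsk, was yolk-sac-only, that is, called in each yolk sac library but in no liver library, as were 5.25% of all protein-coding genes. Ctse alone was liver-only, the reverse pattern, as were 1.01%. Ctss was called in 1 library, and mixed patterns of this kind made up 5.73%. Ctsw was called in none, as were 34.2%. Among protein-coding genes with a promoter peak in at least 1 list, the shares were 81.8% for all 4 libraries, 7.99% yolk-sac-only and 1.54% liver-only. The promoter peaks of the 33 genes merged into 41 regions, of which 30 were called in all 4 libraries (73.2%, against 69.7% of the promoter regions of all protein-coding genes), 4 were yolk-sac-only (9.76% against 13.3%) and 2 liver-only (4.88% against 2.98%). The score of the promoter peaks of the 33 genes had a median percentile of 72.3 and 68.6 for liver and 68.4 and 64.9 for yolk sac. The percentile is the percentage of the peaks of a list with a score at or below that of the peak. For all protein-coding genes with a promoter peak the medians were 67.6 and 67 for liver and 71.6 and 72 for yolk sac. The patterns of Ctsk and Ctse were the same with windows of 250 and 1000 bp, with only the higher-scoring peaks, and without each library in turn.

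**Figure D1:**
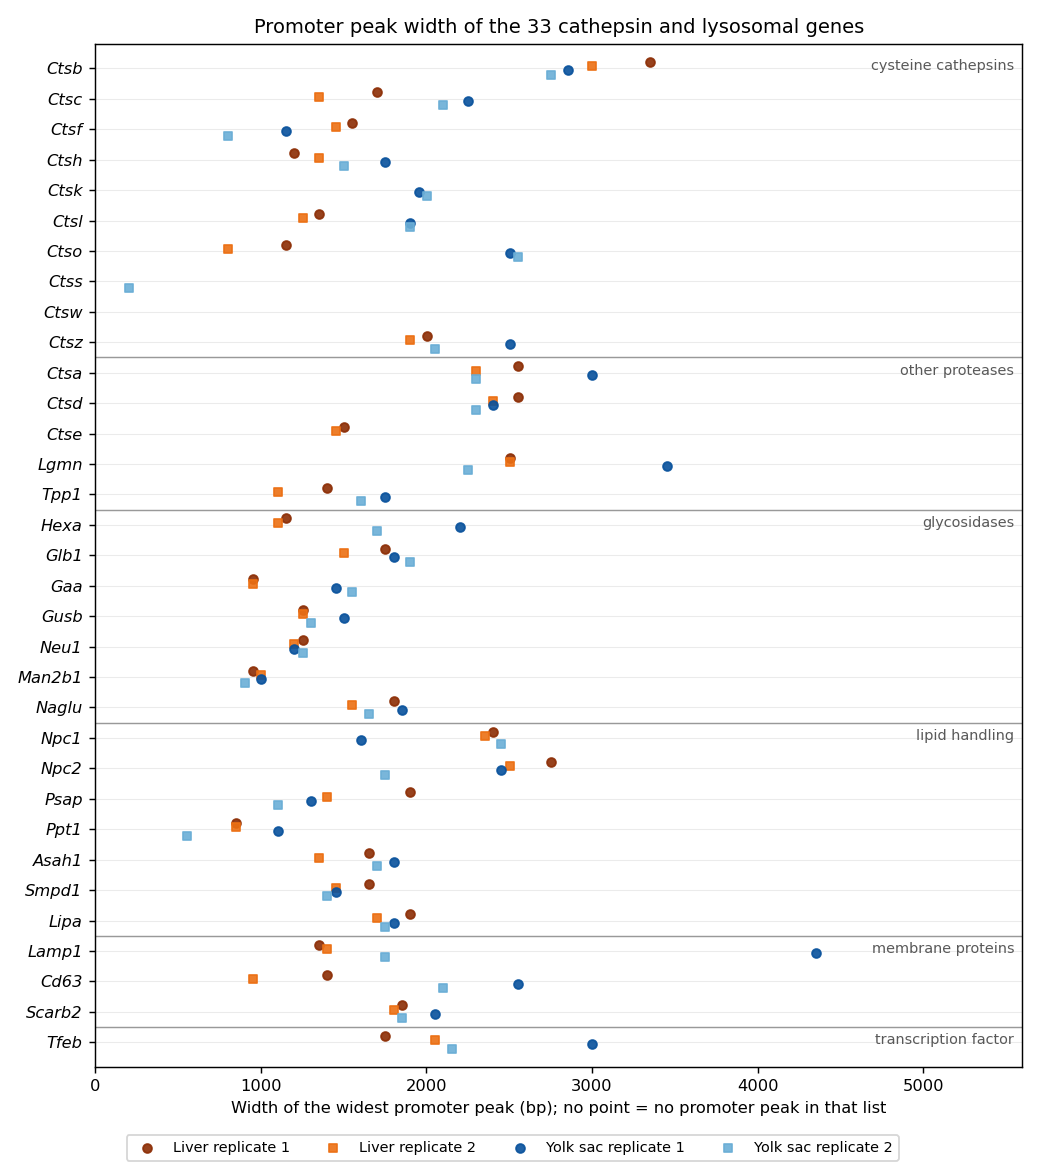
Width in bp of the widest promoter peak of each of the 33 genes, with 1 point per library and the genes grouped by role. Ctsk has points from yolk sac only and Ctse from liver only, Ctss has 1 point at 202 bp, Ctsw has none, and the yolk sac points of Ctso, at 2502 and 2552 bp, lie to the right of the liver points at 1152 and 802 bp.

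Ctsk encodes cathepsin K, a cysteine protease that degrades collagen and is best known from osteoclasts. The gene (ENSMUSG00000028111, chr3:95499256-95509362, plus strand) has 1 annotated start site. Its promoter peak spanned chr3:95498851-95500802 in yolk sac replicate 1 and chr3:95498851-95500852 in replicate 2, with widths of 1952 and 2002 bp. These peaks lay at the 99.9 and 99.7 percentiles of their lists. In the liver lists the nearest peak was 17145 and 17195 bp from the start site. The peaks of the yolk sac lists were thus among the highest-scoring of their lists, while neither liver list had a peak anywhere in the gene. The RefSeq promoter window of Ctsk (GRCm38.p6, chr3:95498960-95499259, plus strand, from 250 bases before to 50 bases after the start) is shown because it is the start region of the yolk-sac-only gene, with its CpG dinucleotides in capitals.
Ctsk: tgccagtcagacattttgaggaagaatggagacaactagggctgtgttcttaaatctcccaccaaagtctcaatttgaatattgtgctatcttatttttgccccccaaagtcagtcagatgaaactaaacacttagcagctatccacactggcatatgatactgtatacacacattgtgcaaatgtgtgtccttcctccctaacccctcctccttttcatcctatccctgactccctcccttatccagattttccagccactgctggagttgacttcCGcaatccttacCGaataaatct
The window holds 2 CpG dinucleotides. The median was 21 over the promoter windows of protein-coding genes found in every library, 9 over those of yolk-sac-only genes, and 3 over those of genes called in none.

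Ctss, the gene of cathepsin S, a cysteine protease of antigen-presenting cells, lies next to Ctsk on the same strand (ENSMUSG00000038642, chr3:95526786-95556403), with its start 27.5 kb beyond that of Ctsk. Its 1 promoter peak, in yolk sac replicate 2, was 202 bp wide, began 65 bp after the start site and lay at the 14.1 percentile of its list. It was absent from the higher-scoring 50% of that list. The nearest peak to this start was 1484 bp away in yolk sac replicate 1, and 6884 and 5284 bp away in the liver lists. Between the end of Ctsk and the start of Ctss, 4 regions of merged peaks were found. The region at chr3:95523301-95525302 was yolk-sac-only, with widths of 2002 and 1752 bp. The region at chr3:95518751-95519902 was liver-only, with widths of 1152 and 1052 bp. The interval between the genes therefore held peaks in both tissues, at partly different positions.

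Ctse encodes cathepsin E, an aspartic protease of endosomes known from the stomach, immune cells and red blood cells. The gene (ENSMUSG00000004552, chr1:131638306-131675505, plus strand) has 3 annotated start sites. Its promoter peak spanned chr1:131637751-131639252 in liver replicate 1 and chr1:131637751-131639202 in replicate 2, with widths of 1502 and 1452 bp and score percentiles of 51.7 and 77.7. It covered the first pair of start sites. In the yolk sac lists the nearest peak to any start site was 3859 and 25454 bp away. Both liver lists also had a peak about 23 kb before the gene, at chr1:131614401-131615052 in replicate 1 and chr1:131614351-131614952 in replicate 2, where the yolk sac lists had none.

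Markers of other cell types moved with these calls. The liver lists, in which Ctse was called, had promoter peaks at 9 and 9 of 9 erythroid markers and at 4 and 3 of 8 mast cell and granulocyte markers, and the yolk sac lists at 3 and 3 and at 1 and 1. Some of the liver peaks at granulocyte markers scored low. Mpo had a peak of 202 bp at percentile 8.2 in liver replicate 1 only. The liver percentiles were 7.8 and 40.3 at S100a8 and 23.1 and 3.3 at Ctsg. The yolk sac lists, in which Ctsk was called, had promoter peaks at 10 and 10 of 10 mesenchymal markers and at 10 and 8 of 10 macrophage markers, and the liver lists at 5 and 9 and at 5 and 5. Of 6 osteoclast markers, Acp5 was called in every library, whereas Calcr, Ocstamp, Dcstamp, Mmp9 and Oscar were called in none. Hepatocyte markers were called at 7 and 6 of 10 in liver and at 6 and 6 in yolk sac. Endothelial markers were called at 6 and 7 of 8 in liver and at 8 and 8 in yolk sac. Of 10 trophoblast markers, 1 was called in every list. The part of these cell types in the calls at Ctsk and Ctse was not tested.

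**Figure D2:**
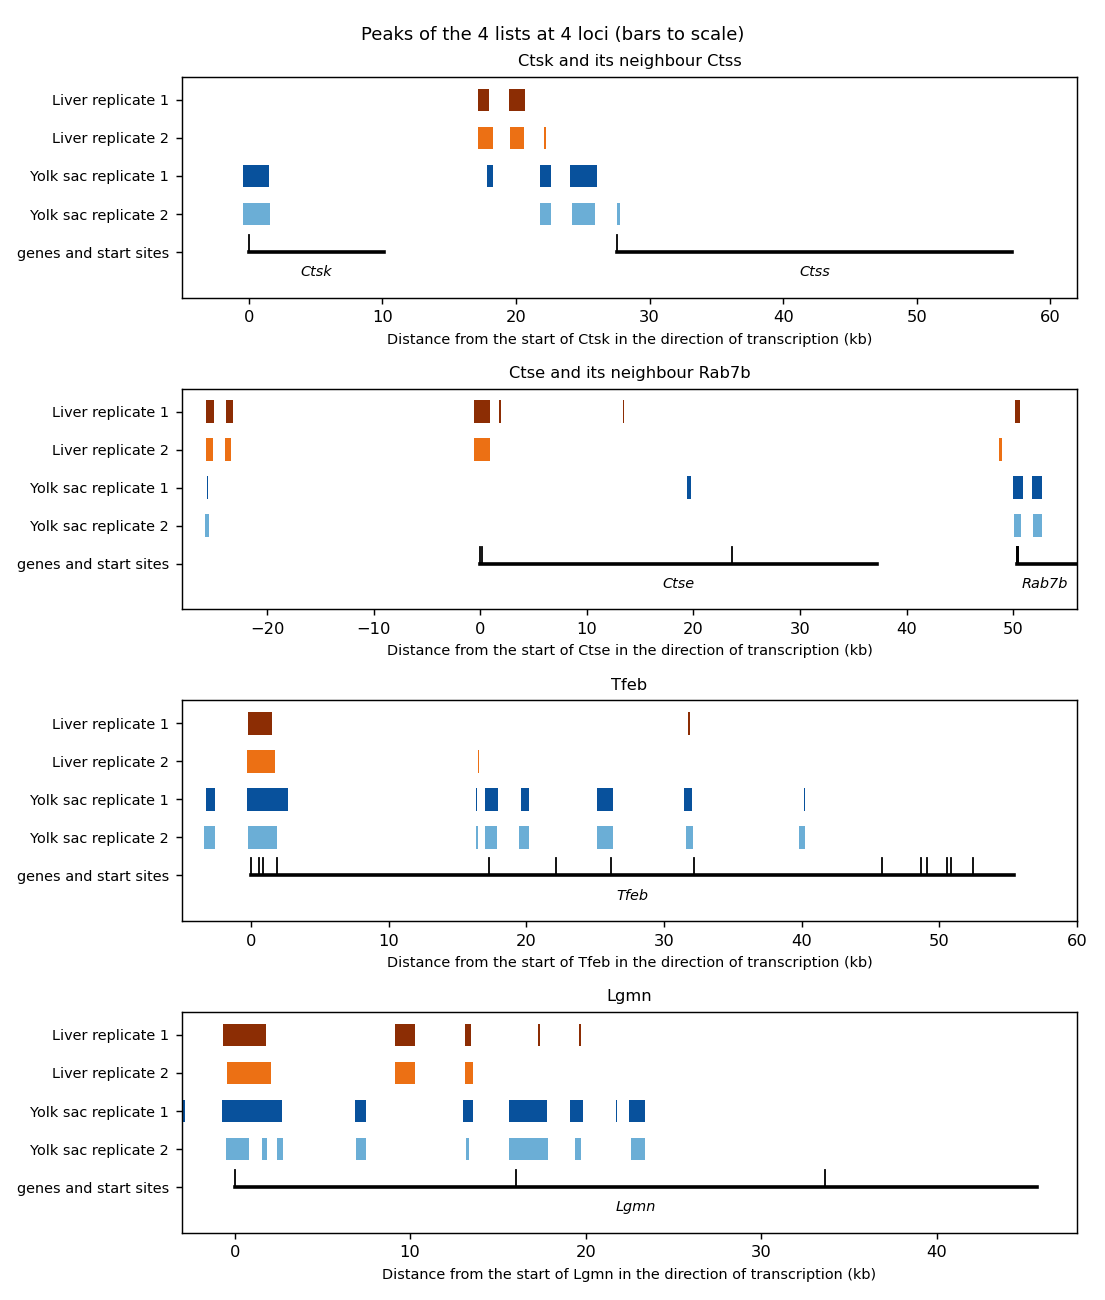
Peaks of the 4 lists (coloured bars, to scale) at 4 loci against distance in kb from the start of the gene in its direction of transcription, with black lines for genes and upright ticks for annotated start sites. Ctsk has a promoter peak in the yolk sac lists only, Ctse in the liver lists only, and Tfeb and Lgmn have internal peaks that differ between the tissues.

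Ctsw, the gene of cathepsin W, a cysteine protease of natural killer and cytotoxic T cells, had no promoter peak in any list (ENSMUSG00000024910, chr19:5465043-5468507, minus strand). The nearest liver peaks were 5123 and 5123 bp from a start site, and the nearest yolk sac peaks 5044 and 5094 bp.

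Among the other 7 cysteine cathepsin genes, all of which were called in the 4 libraries, the widest promoter peak was wider in each yolk sac library than in any liver library at Ctsc, Ctsh, Ctsl, Ctso and Ctsz. At Ctso, the gene of cathepsin O (ENSMUSG00000028015, chr3:81932601-81956725), it measured 1152 and 802 bp in liver and 2502 and 2552 bp in yolk sac, a 2.59-fold ratio of the means. At Ctsl, the gene of the broadly active endopeptidase cathepsin L, the widths were 1352 and 1252 bp in liver and 1902 and 1902 bp in yolk sac (1.46-fold). At Ctsc, whose product activates granule serine proteases, they were 1702 and 1352 bp in liver and 2252 and 2102 bp in yolk sac (1.43-fold). The tissues did not overlap at any of the 3 genes, and at each of them the gap between tissues was larger than that between replicates. At Ctsh, the gene of an aminopeptidase, and Ctsz, the gene of a carboxypeptidase, the ratios were 1.27 and 1.17, and the gap between tissues was not larger than that between replicates. The promoter peak of Ctsh stood at percentiles 98.7 and 97.3 among liver peaks and 98.8 and 96.6 among yolk sac peaks, so it was among the highest-scoring peaks in every list.

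At Ctsb, the gene of cathepsin B (ENSMUSG00000021939, chr14:63122462-63145923), the order was the reverse, with 3352 and 3002 bp in liver and 2852 and 2752 bp in yolk sac. This was the widest promoter peak of the 29 genes by the mean over the 4 lists. Ctsf, the gene of cathepsin F (ENSMUSG00000083282, chr19:4855130-4860918), also had its widest peak in liver, but at another start. Around the first start sites of Ctsf the peak was 502 and 602 bp wide in liver and 1152 and 802 bp in yolk sac. A second peak, 4 kb into the gene at chr19:4858401-4859952, covered start sites of transcripts classed as processed transcripts or retained introns. It was 1552 and 1452 bp wide in the liver lists and absent from the yolk sac lists. Ctsf was the 1 gene of the 33 with more promoter peaks in both liver lists than in either yolk sac list, against 1.74% of the protein-coding genes called in all 4 libraries. It has 12 annotated start sites, beside a median of 3 over all protein-coding genes.

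Of the proteases with other active sites, the aspartic protease gene Ctsd and the carboxypeptidase gene Ctsa had broad promoter peaks in both tissues. At Ctsd they measured 2552 and 2402 bp in liver and 2402 and 2302 bp in yolk sac. At Ctsa they measured 2552 and 2302 bp in liver and 3002 and 2302 bp in yolk sac, and the peak also touched the start window of Neurl2. The tissues overlapped at both genes. At Tpp1, the gene of a tripeptidyl peptidase deficient in a childhood neuronal storage disease, the widths were 1402 and 1102 bp in liver and 1752 and 1602 bp in yolk sac, without overlap.

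Lgmn encodes legumain, a cysteine protease that cuts after asparagine and processes cathepsins (ENSMUSG00000021190, chr12:102394084-102439813, minus strand). Its promoter peak at the first start site was called in all 4 libraries, with widths of 2502 and 2502 bp in liver and 3452 and 1302 bp in yolk sac, so the tissues overlapped there. Yolk sac replicate 2 had 3 separate peaks in this region, and 1302 bp is the width of the one at the start. In yolk sac replicate 2 the widest promoter peak of the gene lay at another start. A second start site of a coding transcript lay under a region at chr12:102421951-102424202, centred 16.7 kb into the gene. The peak of this region was 2202 and 2252 bp wide in the yolk sac lists, 152 bp wide in liver replicate 1, where it did not reach the start window, and absent from liver replicate 2. Inside the gene, the region at chr12:102429551-102430702 was liver-only, with widths of 1152 and 1102 bp. The regions at chr12:102416451-102417352 and chr12:102432301-102432952 were yolk-sac-only. In the full lists Lgmn thus had internal peaks of each tissue's own beside a shared promoter. With all lists cut to equal length, the liver-only region kept its pattern, but both yolk-sac-only regions were absent from every list.

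All 7 glycosidase genes were called in all 4 libraries, and at Hexa, Glb1, Gaa and Gusb the promoter peak was wider in each yolk sac library than in any liver library. At Hexa, the gene of the beta-hexosaminidase alpha subunit, deficient in Tay-Sachs disease, the widths were 1152 and 1102 bp in liver and 2202 and 1702 bp in yolk sac (1.73-fold). At Gaa, the gene of acid alpha-glucosidase, which degrades glycogen, they were 952 and 952 bp in liver and 1452 and 1552 bp in yolk sac (1.58-fold). At Glb1, the beta-galactosidase gene, and Gusb, the beta-glucuronidase gene, the ratios were 1.14 and 1.12, close to the spread between replicates. The tissues overlapped at Neu1 (sialidase), Man2b1 (alpha-mannosidase) and Naglu (alpha-N-acetylglucosaminidase). The promoter peak of Hexa also touched the start window of Tmem202, and that of Glb1 the start window of Tmppe.

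All 7 genes of lipid handling were also called in all 4 libraries, with no shared order of the tissues. At Psap, the gene of prosaposin, the precursor of activators of sphingolipid breakdown, the promoter peak was 1902 and 1402 bp wide in liver and 1302 and 1102 bp in yolk sac. At Npc2, whose product binds cholesterol in the lysosome, it was 2752 and 2502 bp in liver and 2452 and 1752 bp in yolk sac, and it touched the start window of Isca2. At these 2 genes liver was wider without overlap. At Asah1, the acid ceramidase gene, yolk sac was wider (1.17-fold), with 1652 and 1352 bp in liver and 1802 and 1702 bp in yolk sac. At Psap, Npc2 and Asah1 alike the gap between tissues was smaller than that between replicates. The tissues overlapped at Npc1, Ppt1, Smpd1 and Lipa. Npc1, the gene of the membrane partner of NPC2, had a yolk-sac-only region at chr18:12223901-12224802 over a start of a non-coding transcript 12 kb into the gene, which was absent from all lists once they were cut to equal length. Lipa, the gene of lysosomal acid lipase, had a second promoter peak in the yolk sac lists alone, 16.3 kb into the gene, but the liver lists had peaks of 302 and 302 bp in the same region outside the start window.

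Of the 3 genes of membrane proteins, Lamp1, a main glycoprotein of the lysosomal membrane, and Cd63, a tetraspanin of late endosomes, had wider promoter peaks in yolk sac. At Lamp1 (ENSMUSG00000031447, chr8:13159161-13175338) the widths were 1352 and 1402 bp in liver and 4352 and 1752 bp in yolk sac. The value of 4352 bp stood alone, because yolk sac replicate 1 had a single peak where yolk sac replicate 2 had 3 separate ones. At Cd63 the widths were 1402 and 952 bp in liver and 2552 and 2102 bp in yolk sac (1.98-fold). At Scarb2, the gene of the receptor that carries beta-glucocerebrosidase to the lysosome, the tissues overlapped, with 1852 and 1802 bp in liver and 2052 and 1852 bp in yolk sac.

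Tfeb, the gene of the transcription factor itself (ENSMUSG00000023990, chr17:47737030-47792419, plus strand), had more promoter peaks in yolk sac than in liver. With 14 annotated start sites, it had 2 and 1 promoter peaks for liver and 4 and 4 for yolk sac. A gap of at least 2 promoter peaks in this direction was seen at 0.762% of the protein-coding genes called in all 4 libraries. The median number of start sites was 3 over all protein-coding genes, so most of them have fewer start windows than Tfeb. The part of the number of start sites in such counts was not tested. The peak at the first start sites was shared, with widths of 1752 and 2052 bp in liver, where it ended before the 4th start site, and 3002 and 2152 bp in yolk sac, where it covered it. Further starts of coding transcripts lay under or near 3 internal regions. The region at chr17:47754001-47754952, centred 17.4 kb into the gene, was 952 and 852 bp wide in the yolk sac lists and absent from the liver lists. The region at chr17:47762201-47763352, at 25.7 kb, was 1102 and 1152 bp wide in the yolk sac lists, at the 76 and 81.4 percentiles, and absent from the liver lists. The region at chr17:47768501-47769152, at 31.8 kb, reached a start window but ended before the start site, and was called in both yolk sac libraries and, with a width of 202 bp, in liver replicate 1. The first pair of internal regions kept its yolk-sac-only pattern when all lists were cut to the length of the shortest. Lgmn, Lipa, Npc1 and Tfeb were the 4 genes of the 33 with more promoter peaks in each yolk sac list than in any liver list, a pattern of 6.32% of the protein-coding genes called in all 4 libraries.

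Over the 29 genes called in all 4 libraries, the widest promoter peak had a median width of 1652 and 1402 bp for liver and of 1852 and 1752 bp for yolk sac. The means of these medians were 1527 ± 177 and 1802 ± 70.7 bp (SD, n = 2), a log2 ratio of 0.24 (two-sided exact permutation p = 0.333, the lowest this design allows). The log2 ratio was 0.13 without liver replicate 2 and 0.36 without liver replicate 1. Over all 11805 protein-coding genes called in all 4 libraries the same log2 ratio was 0.07, and the tissues overlapped. Of the 29 genes, 14 were wider in each yolk sac library than in any liver library, which is 48.3% against 35.6% of those protein-coding genes. Another 4 were wider in both liver libraries, 13.8% against 20.7%, with Ctsf among them through its second peak, and the tissues overlapped at 11. The number of reads behind each library is unknown, and its part in these widths was not tested.

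**Figure D3:**
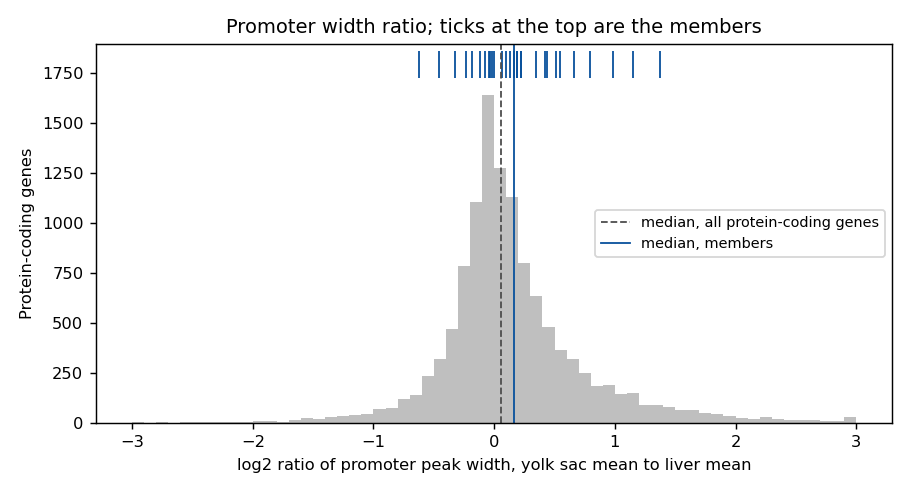
Histogram of the log2 ratio of promoter peak width, yolk sac mean to liver mean, over the 11805 protein-coding genes called in all 4 libraries, with ticks at the top for the 29 members. The median was 0.16 for the members (solid line) and 0.06 for all genes (dashed line), and the members lie on both sides of 0. Ratios beyond 3 or -3 are drawn at the edge.

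Peaks inside the gene bodies were more numerous in the yolk sac lists. A gene-body peak is one with its midpoint in the gene that touches no start window of any annotated gene. The 33 genes held 12 and 9 such peaks for liver against 30 and 28 for yolk sac, with means of 10.5 ± 2.12 and 29 ± 1.41 (SD, n = 2; two-sided exact permutation p = 0.333, the lowest this design allows). This was a ratio of 2.76 for the 33 genes and 2.65 for all protein-coding genes. With all lists cut to the 24333 highest-scoring peaks, the order turned to 10 and 9 peaks in liver against 4 and 4 in yolk sac, and the log2 ratio from 1.47 to -1.25. In all protein-coding genes it turned from 1.41 to -0.23.

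Gene-body peaks were present at 19 of the 33 genes, against 37.6% of all protein-coding genes, and absent from all lists at the other 14. Lgmn held the most, with 4 and 2 for liver and 5 and 6 for yolk sac. Of the 6, those of 352 and 302 bp nearest the gene start lay in the merged promoter region of the first start site. Of the 4, 1 of 152 bp lay in the merged region of the second start site. Scarb2 had none for liver and 5 and 4 for yolk sac, the widest gap of the 33 genes. Npc1 had 1 and 1 in liver and 3 and 3 in yolk sac, Tfeb had 0 and 1 against 3 and 3, and Ctso had 0 and 0 against 2 and 3. Ctsb had 0 and 0 against 3 and 1, but at no position shared by the yolk sac lists. Its gene-body peaks were 102 to 202 bp wide, at percentiles 3.7 to 11. Lipa and Neu1, with 1 in every list, reached the same total of 4. In all, 8 of the 33 genes had more gene-body peaks in each yolk sac list than in any liver list, against 16.9% of all protein-coding genes and 44.9% of those with a gene-body peak in any list. The remaining genes of this kind were Glb1 and Npc2. Ctsd was the 1 gene with the reverse order, against 3.38% of all protein-coding genes and 8.97% of those with a gene-body peak. This order rested on 1 peak in each liver list, 252 and 452 bp wide at percentiles 0.8 and 27.4.

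**Figure D4:**
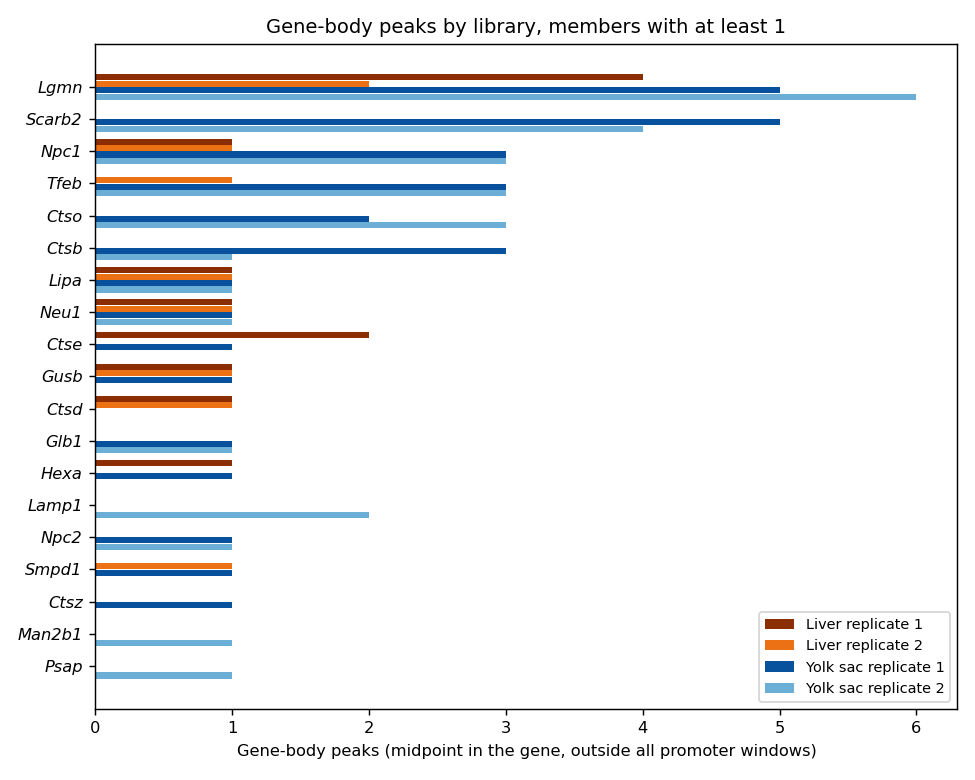
Number of gene-body peaks in each of the 4 lists for the 19 members with at least 1, as bars from 0. The blue yolk sac bars exceed both liver bars at 8 genes, led by Scarb2 with 5 and 4 peaks against 0, and the reverse is seen at Ctsd alone.

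After all peaks of the 4 lists were merged, 39 regions had their midpoint in one of the genes and touched no start window. Gene-body peaks that merged into a region touching a start window, such as those of Lamp1, are not among them. Of these, 14 were yolk-sac-only (35.9%, against 39.2% of the gene-body regions of all protein-coding genes), 3 were liver-only (7.69% against 8.82%) and 3 were called in all 4 libraries (7.69% against 6.76%). The yolk-sac-only count was 24 when yolk sac replicate 2 was left out, and the liver-only count was 5 when liver replicate 2 was. With lists of equal length 3 of the 14 remained yolk-sac-only. The shares of the 33 genes were thus near those of protein-coding genes in general. Scarb2 had 4 of the yolk-sac-only regions, at chr5:92442951-92443352, chr5:92488051-92488952, chr5:92493401-92493952 and chr5:92498951-92499602. The yolk-sac-only regions that kept this pattern with lists of equal length were those of Glb1 (chr9:114416751-114417802), Npc1 (chr18:12228101-12230002) and Lipa (chr19:34496051-34497352). In Glb1 the peaks were 952 and 902 bp wide at the 84.8 and 60.6 percentiles of the yolk sac lists. In Lipa they were 1302 and 1102 bp wide at the 81.1 and 52.2 percentiles. The liver-only regions lay in Lgmn, in Gusb (chr5:129993301-129993852) and in Ctsd (chr7:142377601-142378052), where the gene Gm49369 also spans the position. With lists of equal length those of Lgmn and Gusb kept this pattern and that of Ctsd did not. The peaks in Gusb stood at percentiles 7.6 and 9.4 of the liver lists.

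The rest of the lysosomal system was examined with lists of further genes. Of 34 further hydrolases and activators, 33 were called in all 4 libraries. Dpp7, the gene of dipeptidyl peptidase 7, was missed in liver replicate 1 and had a peak of 102 bp at the 1.1 percentile in replicate 2. In the yolk sac lists its peak was 1102 and 1152 bp wide, at percentiles 86.5 and 76.2. Of 28 genes of membrane proteins and transporters, 25 were called in all 4 libraries, and Lamp3 and Gpnmb in none. Slc15a3 had a peak of 202 bp in liver replicate 1, no peak in liver replicate 2, and peaks of 1452 and 1352 bp in yolk sac. All 18 genes of TFEB relatives and of nutrient signalling at the lysosome, among them Tfe3, Mitf, Tfec and Mtor, were called in all 4 libraries. Of 24 genes of the proton pump that acidifies the lysosome, Atp6v0a4 and Atp6v0e2 were yolk-sac-only and 18 were called in every library. Of 12 genes that sort hydrolases to the lysosome, 11 were called in all 4 libraries, and Sorl1, a sorting receptor, was yolk-sac-only. Of 14 genes of cystatins, the inhibitors of cysteine cathepsins, 10 were called in none, and Cst6 was yolk-sac-only. Cst7 was called in liver replicate 1 only, with a width of 602 bp. Of 11 other genes of cathepsins and of the placental cathepsin locus, Ctsg, a serine protease gene of neutrophils, was liver-only and the other 10 were called in none. Over the 141 genes of these lists, 2.84% were yolk-sac-only, 0.709% liver-only and 75.9% called in every library, beside 5.25%, 1.01% and 53.8% of all protein-coding genes.

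The promoter sequences of the genes were searched for the E-box CACGTG, the core of the element that TFEB and related factors bind, which reads the same on both strands. RefSeq promoter windows (GRCm38.p6, from 250 bases before to 50 bases after the start) were available for 27 of the 33 genes, 32 windows in all. Those of Asah1, Ctsb, Ctse, Ctsh, Ctsw and Npc1 were not used here. CACGTG was found in 9 of the 32 windows (28.1%), in 9 genes, against 7.15% of all 32851 windows of the table and 10.1% of the windows of protein-coding genes called in all 4 libraries. At least 2 copies were found in 3 windows (9.38%, against 0.594%). The longer palindromic CLEAR element of lysosomal promoters was found in none of the 32 windows (0.326% of all windows), and TCACGTGA, which lies within it, in 2 (6.25% against 0.974%). TATAAA on the strand of the gene was found in none (8.32% of all windows). A match shows these letters and not binding.

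The 14 matches are printed 5′ to 3′ on the strand of the gene, with the E-box in capitals and up to 8 bases on either side, because they show how the element varies among the genes. The position of each, in bases before the start, is followed by the coordinates and strand of the E-box. Every one of these windows was overlapped by a peak in all 4 lists. The E-box of Ctsf itself lay within the yolk sac peaks but just outside the liver peaks, both of which began at chr19:4855101.
Lamp1, 61, chr8:13159100-13159105 (plus): caagatatCACGTGgtccagcg
Lamp1, 45, chr8:13159116-13159121 (plus): ccagcgccCACGTGatgccgac
Lamp1, 28, chr8:13159133-13159138 (plus): ccgactggCACGTGaccacatc
Lamp1, 15, chr8:13159146-13159151 (plus): gaccacatCACGTGcggaacgg
Ctsd, 245, chr7:142388067-142388072 (minus): tccccCACGTGacctgtat
Ctsd, 98, chr7:142387920-142387925 (minus): ccgcgtctCACGTGacccgttg
Ctsa, 12, chr2:164833761-164833766 (plus): caaactgtCACGTGatgcagat
Ctsa, 5 bases after the start, chr2:164833778-164833783 (plus): cagatgctCACGTGaccagagc
Glb1, 48, chr9:114401030-114401035 (plus): ttctgagtCACGTGgcctacag
Naglu, 73, chr11:101070021-101070026 (plus): cttcaggtCACGTGgcccgagg
Lgmn, 49, chr12:102439136-102439141 (minus): atgtctgtCACGTGgtccattt
Ctsf, 79, chr19:4855086-4855091 (plus): ccgtggtcCACGTGcctcgcgt
Gaa, 140, chr11:119267823-119267828 (plus): tgtgcgatCACGTGtttgactc
Ctsl, 236, chr13:64370751-64370756 (minus): ttagaagcCACGTGctgatcta
Of the 14 matches, 10 began within 100 bases before the start. Of the 4 letters that flank the E-box in the CLEAR element, 6 matches shared 3, a further 2 shared 2 and the other 6 shared 1. TCACGTGA was found in the windows of Ctsd and Ctsa.

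Lamp1 had 4 copies in 1 window, as did 0.0244% of all windows (8 of 32851). This window (chr8:13158911-13159210, plus strand) is shown whole, with the copies in capitals, because they lie within the shared promoter peak of the gene.
Lamp1: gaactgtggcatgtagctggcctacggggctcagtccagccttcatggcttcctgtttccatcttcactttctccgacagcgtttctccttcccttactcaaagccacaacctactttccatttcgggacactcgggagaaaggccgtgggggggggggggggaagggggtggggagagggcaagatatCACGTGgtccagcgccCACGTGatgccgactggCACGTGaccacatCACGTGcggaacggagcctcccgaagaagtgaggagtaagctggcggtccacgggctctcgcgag
The promoter peak at the start region with the E-box was wider in yolk sac at Ctsl, Gaa, Glb1, Lamp1 and Ctsf, and the tissues overlapped at Ctsa, Ctsd, Lgmn and Naglu. By the widest promoter peak of the gene, Ctsf was wider in liver. By that measure yolk sac was wider at 48.3% of the 29 genes and at 35.6% of protein-coding genes called in all 4 libraries. A link of the E-box to peak width was not tested.

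**Figure D5:**
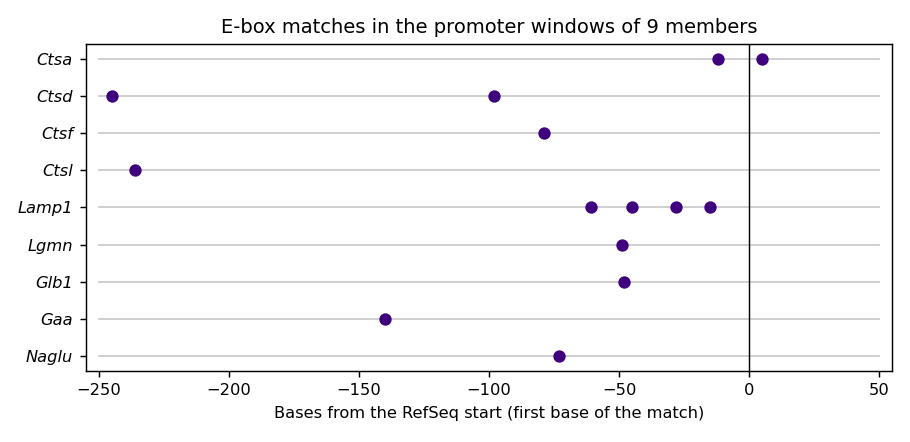
Position of each CACGTG match (points) in the promoter windows of 9 genes, in bases from the RefSeq start at 0, the grey lines marking the window. The 4 matches of Lamp1 lie between 61 and 15 bases before the start, and Ctsa has 1 match after it.

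Ctso, whose promoter peak showed the largest width ratio, has 5 CpG dinucleotides in its window (chr3:81932351-81932650, plus strand), in capitals here for comparison with Ctsk.
Ctso: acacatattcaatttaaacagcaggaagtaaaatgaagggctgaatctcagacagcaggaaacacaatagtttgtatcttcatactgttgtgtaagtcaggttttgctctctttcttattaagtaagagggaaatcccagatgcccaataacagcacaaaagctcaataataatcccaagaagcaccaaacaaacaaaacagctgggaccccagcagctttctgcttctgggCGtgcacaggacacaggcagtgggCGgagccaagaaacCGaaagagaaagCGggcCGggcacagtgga
The median was 12 CpG dinucleotides over the 32 windows of the genes. At most 5 were found in 15.6% of these windows, against 10.6% of those of protein-coding genes called in all 4 libraries and 70.8% of those of genes called in none.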

How the data were processed

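PRO-seq peak lists of 4 libraries, 2 from liver and 2 from yolk sac, were analysed as deposited by the authors, 1 list per library and not pooled. The score of a peak is as deposited by the authors; it has no unit, was at least 0.8, and served only for ranking and filtering inside its own list. Per the submitters' processing notes, Bowtie2, bedtools and mm10 were used. Other tools, versions and filters are not given in the sources used here. Start sites and genes came from GENCODE vM21 (GRCm38), and positions are 1-based. Overlapping peaks (1 bp or more) of the 4 lists were joined, which gave 61095 regions. Calculations used scipy 1.17.1, pandas 2.3.3 and numpy 2.4.6 under Python 3.11.15. The functions were tested on simulated lists, where 200 of 200 planted genes were returned in their pattern. Each planted peak lay over a start site whose window overlapped that of no other gene, and no gene-body peak was planted. Shared windows, split peaks and the finding of gene-body peaks were therefore not tested. Tissues were compared by two-sided exact permutation tests over the 6 assignments of libraries. The genes, the further lists and the alternatives (window, score, list length, start sites, each library left out, replicate number as a block) were chosen with earlier results of these data known. Genes given with the values of every library are those not called in all 4 libraries, the 6 (with ties) with the most gene-body peaks or the widest gap between tissues, and the 5 with the widest promoters. Other genes with values, the printed Lamp1 and Ctso windows and the E-box sites were chosen after the values were seen. Percentiles of lists of different length are not compared.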

Additional observations from a re-analysis of the deposited data

How the results depend on the processing

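Values that moved beyond 1 SD of the replicates, and counts that moved beyond 1.5 times, were the following. With the higher-scoring 50% of each list, the difference in genes with a promoter peak moved from 0.5 to 1.5, the yolk-sac-only genes from 1 to 2 (Tpp1 joined Ctsk), and the yolk-sac-only and liver-only gene-body regions to 3 and 1. With all lists cut to the length of the shortest, the difference in genes with a promoter peak was -1.5, the liver-only genes were 2 (Ppt1 joined Ctse), the yolk-sac-only gene-body regions were 3 and the log2 ratio of gene-body peaks reversed to -1.25. These settings remove more of the longer yolk sac lists or of low-scoring peaks by construction. Leaving out each library in turn gave 1 to 2 yolk-sac-only genes (Ctss joined Ctsk without yolk sac replicate 1), 15 to 24 yolk-sac-only gene-body regions (24 without yolk sac replicate 2) and 3 to 5 liver-only ones (5 without liver replicate 2), since a call then needed fewer libraries. The log2 ratio of promoter width ranged from 0.13 to 0.36 over the same omissions. The share of windows with the CLEAR element in place of CACGTG was 0%. The windows of 250 and 1000 bp, coding start sites alone, overlap in place of midpoints and merging within 500 bp moved no result beyond these limits. The log2 ratio of gene-body peaks was 1.3 with windows of 250 bp and 1.61 with windows of 1000 bp. With replicate number as a block, the log2 ratios were 0.24 for width and 1.48 for gene-body peaks (exact permutation p = 0.5, the smallest the block allows), the difference in genes with a promoter peak was 0.5, and no count changed. The replicate differences of the tissues correlated at -0.0187 over 14437 genes for promoter width, so the numbers were not taken as pairs. Depth is unknown, and an absent peak does not show absent transcription.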
